A study of Mus musculus with 10 samples.

Results

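The genes described here are the olfactory, vomeronasal and trace amine-associated receptor genes with detectable RNA in mouse germinal vesicle oocytes, the full-grown oocytes arrested in the first meiotic prophase. They were chosen by symbol (Olfr, Vmn1r, Vmn2r or Taar followed by a digit) and by a level of at least 0.5 RPKM (reads per kilobase of transcript per 1e6 mapped reads) in at least 1 of 10 libraries. Of 1471 such symbols in the expression table, 74 met the rule, which are 5.03%. These were 68 of 1125 Olfr genes, 3 of 209 Vmn1r genes, 2 of 122 Vmn2r genes and 1 of 15 Taar genes. A further 269 receptor genes had some signal below 0.5 RPKM, and 1128 (76.7%) were listed at 0 in every library.

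All libraries came from C57Bl/6J mice, and each mouse gave 1 pool of 16 denuded oocytes, isolated in medium with milrinone. The mutant group is Setdb1 F/-; ZP3-cre (4 libraries), which combines a floxed allele of Setdb1, a deleted one and a Cre transgene driven by the promoter of an egg coat gene that is active in growing oocytes. The controls are Setdb1 F/+; ZP3-cre (4 libraries, called Cre controls below), which carry the same transgene, and Setdb1 F/- without Cre (2 libraries, called F/- controls). Deletion by this transgene happens during oocyte growth, so earlier stages still had the floxed allele. Setdb1 encodes a methyltransferase of histone H3 lysine 9, and the question put to the receptor genes was whether their heterochromatic clusters are de-repressed in the mutants.

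Olfactory receptors are G protein-coupled receptors that are best known from the sensory neurons of the nose. A mature sensory neuron expresses 1 receptor gene from 1 allele, while the other receptor genes lie in heterochromatin that carries methylated histone H3 lysine 9. The genes stand in large tandem clusters on many chromosomes, and most have their whole coding sequence in 1 exon. Vomeronasal receptors do the same work in the vomeronasal organ, and trace amine-associated receptors detect volatile amines. Transcripts of single olfactory receptor genes are also known from tissues outside the nose.

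The spacing of low values gave 45.9e6 to 72.7e6 reads per library, and with these totals 98.0% of 561 receptor values of up to 40 reads fell within 0.1 of a whole read. These values came from receptor genes spanning under 1100 bases. The totals were tuned on the same values, so this share is a measure of fit and not a separate check. On a receptor of the length of Olfr1197 (945 bases), 1 read was worth 0.0146 to 0.0230 RPKM and 0.5 RPKM stood for 21.7 to 34.3 reads. Setdb1 was 2.81 ± 1.17 RPKM (SD, n = 4) in the mutants and 29.7 ± 11.5 (SD, n = 6) in the controls, with an exact two-sided permutation p of 0.00476, the smallest that 210 splits allow. F/- control replicate 2 stood apart, with the fewest genes at or above 0.5 RPKM (10325, against 10592 to 11243 in the others). Results against all controls that depend on it are given with and without it.

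Olfr1197, Olfr1340, Olfr1257 and Olfr792 rose in the mutants, and Olfr1104 fell. All 5 encode olfactory receptors. The other 69 members did not pass the test, limma on log2(RPKM + 0.5) with Benjamini-Hochberg adjustment over the 13754 genes tested and a threshold of 0.05. Higher calls thus covered 5.41% of members, beside 2.57% of all genes tested, and lower calls 1.35% of members, beside 1.67% of all genes. The rule takes the highest of 10 libraries, so a gene that reached 0.5 RPKM in 1 group alone entered because it was high there, and these shares support nothing by themselves. In pools of whole oocytes, fewer oocytes with a transcript and less of it per oocyte cannot be told apart.

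Olfr1197 had the largest change among the members on the log2(RPKM + 0.5) scale, while with a pseudocount of 0.1 that of Olfr1257 was larger (4.13 against 4.00). The gene lies at chr2:88728653-88729597 on the minus strand (GRCm38), with its coding sequence in 1 exon. Its level was 7.32, 9.24, 7.66 and 5.13 RPKM in mutant replicates 1 to 4. It was 0.29, 0.49, 0.41 and 0.48 in Cre control replicates 1 to 4, and 0.60 and 0.09 in F/- control replicates 1 and 2. Every mutant library lay far above every control library. These values stand for 284 to 491 reads in the mutants and 6 to 31 reads in the controls. The means were 7.34 ± 1.69 (SD, n = 4) and 0.393 ± 0.181 (SD, n = 6), an 18.7-fold ratio. The difference was 3.13 ± 0.29 (SE) on the log2(RPKM + 0.5) scale, with a limma adjusted p of 1.33e-05.

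Olfr1340 (chr4:118725722-118727196, plus strand) showed the same order of groups with more spread between mutants. The mutant replicates had 4.73, 5.65, 8.06 and 1.87 RPKM. The Cre controls had 0.29, 0.49, 0.11 and 0.52 RPKM, and the F/- controls 0.14 and 0.36. Mutant replicate 4 was the lowest of its group and still above every control. The log2 difference was 2.65 ± 0.36 (SE), with a limma adjusted p of 0.000533.

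Olfr1257 (chr2:89880828-89881757, plus strand) was close to silent in every control. Its mutant values were 1.58, 1.40, 2.34 and 2.24 RPKM, from 90, 73, 119 and 122 reads. Of the 6 controls, 4 were listed at 0, and Cre control replicates 2 and 4 had 4 reads and 1 read. The mutant range did not meet the control range at any point. The log2 difference was 2.20 ± 0.24 (SE), with a limma adjusted p of 7.92e-05.

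Olfr792 (chr10:129540539-129541474, plus strand) had the smallest rise of the 4. Its mutant values were 0.92, 1.86, 1.29 and 1.38 RPKM. The Cre controls had 0.12, 0.30, 0.45 and 0.09 RPKM, and both F/- controls were listed at 0. The lowest mutant library was above the highest control library. The log2 difference was 1.51 ± 0.28 (SE), with a limma adjusted p of 0.00727. Olfr1257 and Olfr792 were at or above 0.5 RPKM in all 4 mutants and in no control. Both thus met the member rule, and the filter of the test, through the mutants alone. Their selection used the same values as their test, so the 2 p-values are not independent of it.

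Olfr1104 (chr2:87021610-87022542, minus strand) ran the other way, inside the same chromosome 2 cluster as Olfr1197 and Olfr1257. It had 0.31, 0, 0.26 and 0.18 RPKM in the mutants. The Cre controls had 1.36, 2.35, 1.82 and 2.61 RPKM, and the F/- controls 0.82 and 0.83. All mutants were below all controls, and the F/- controls lay between the mutants and the Cre controls. The log2 difference was -1.57 ± 0.33 (SE), with a limma adjusted p of 0.0147. Taken by control genotype, Olfr1104 passed against the Cre controls (limma adjusted p = 0.00314) but not against the F/- controls (limma adjusted p = 0.169). Olfr248 was listed at 0 in all 4 mutants and had 0.10 to 0.78 RPKM in the 6 controls. Its groups did not overlap, but its limma adjusted p was 0.154. In all, the 4 mutants lay above the 6 controls for 4 members (5.41%, beside 4.12% of all genes tested) and below them for 2 members (2.70%, beside 3.25%).

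**Figure D1:**
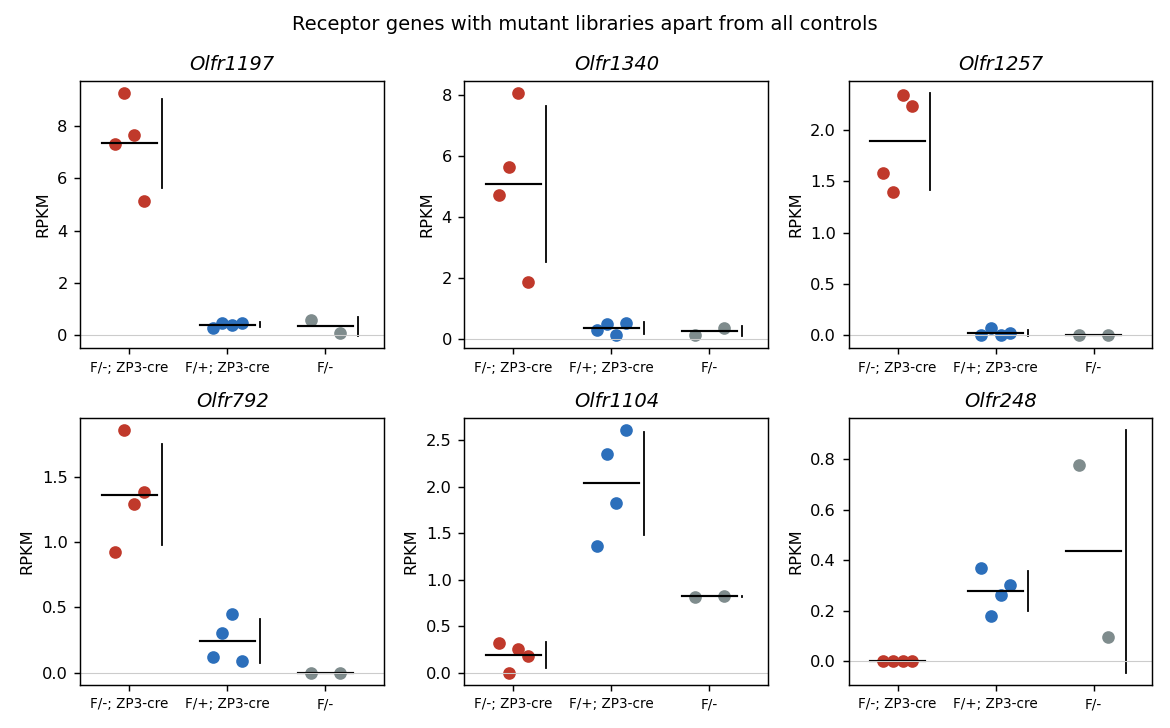
Level in RPKM (vertical axis, linear, each panel on its own scale) of 6 receptor genes by genotype, with 1 point per library, a horizontal bar at the group mean and a vertical bar for 1 SD. In the first 4 panels all mutant points (F/-; ZP3-cre) are above all controls, and for Olfr1104 and Olfr248 they are below.

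Near-identical copies matter for these genes, because a read that matches several receptor genes cannot be placed, and the sources used here do not give the authors' treatment of such reads. The coding sequences of the 74 members were therefore compared with those of 1452 receptor genes. The first 120 coding bases of 3 of the genes that rose are shown with their nearest copies, 5′ to 3′, with capitals at the bases where the members of a pair differ. The positions are chr2:88729478-88729597 and chr2:88701208-88701327 (minus strand) for the first pair, chr10:129540539-129540658 (plus strand) and chr10:129625940-129626059 (minus strand) for the second, and chr4:118726249-118726368 and chr4:118734531-118734650 (plus strand) for the last, all on GRCm38.
Olfr1197: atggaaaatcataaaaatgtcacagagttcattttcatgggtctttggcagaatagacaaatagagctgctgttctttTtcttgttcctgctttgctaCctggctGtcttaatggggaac
Olfr1196: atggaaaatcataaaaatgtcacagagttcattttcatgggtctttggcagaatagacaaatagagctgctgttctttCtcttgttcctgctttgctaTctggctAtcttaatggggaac
Olfr792: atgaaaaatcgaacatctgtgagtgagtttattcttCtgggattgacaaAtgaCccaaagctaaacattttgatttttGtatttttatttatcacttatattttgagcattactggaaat
Olfr798: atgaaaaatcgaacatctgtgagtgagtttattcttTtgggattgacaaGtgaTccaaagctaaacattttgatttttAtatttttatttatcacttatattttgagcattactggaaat
Olfr1340: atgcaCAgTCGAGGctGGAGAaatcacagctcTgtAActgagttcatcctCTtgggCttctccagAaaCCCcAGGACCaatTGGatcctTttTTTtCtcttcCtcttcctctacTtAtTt
Olfr1339: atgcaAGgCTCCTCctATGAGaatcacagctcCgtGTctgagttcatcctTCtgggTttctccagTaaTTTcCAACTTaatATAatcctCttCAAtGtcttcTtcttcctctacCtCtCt

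Olfr1197 and Olfr1196 differed at 3 of these 120 bases and were 97.0% identical over the coding sequence. Of the 50-base stretches of Olfr1197, 51.4% also occurred in another receptor gene. Olfr1196, the next receptor gene at a lower coordinate, had 0.10, 0.08, 0.29 and 0 RPKM in the mutants, and the highest control had 0.04. How reads that match both genes were placed was not tested. Olfr792 and Olfr798 differed at 4 bases and were 95.1% identical, with 19.5% of 50-base stretches of Olfr792 shared. Olfr798 reached at most 0.0174 RPKM. Olfr1340 and Olfr1257 shared no 50-base stretch with any receptor gene, and their nearest copies, Olfr1339 (73.3% identical) and Olfr1258 (80.5%), were listed at 0 in all libraries. Across the members, 12 had a copy over 95% identical and 30 shared no 50-base stretch. The levels of the first group, Olfr1197, Olfr792, Olfr288 and Vmn2r51 among them, are therefore uncertain. In all, 20 members shared over 10% of their 50-base stretches, and the same holds for them. Olfr248 is 1 of these, 94.8% identical to Olfr417, with 20.4% of its 50-base stretches shared.

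Since the libraries do not mark strand, overlapping transcripts were also counted. In the GENCODE M21 annotation 7 of the 74 members share exon bases with another gene, 5 on the same strand and 2 on the opposite strand. None of the 5 members that changed is among them. Olfr288 shares 1774 exon bases with Gm44579 and Olfr1300-ps1 shares 231 with Gm44840, so the levels of both cannot be assigned to the receptor alone.

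Most receptor genes around the 4 that rose were listed at 0 in the mutants. This is not particular to these places, since 76.7% of all 1471 receptor genes were at 0 in every library. Within 500 kb of Olfr1197 lie 40 other receptor genes, 36 of them listed at 0 in all mutants, and only Olfr1176 reached 0.5 RPKM in a mutant (0.52 in replicate 3). Around Olfr1257 there are 36, of which 35 were at 0 in all mutants and the highest mutant mean was 0.00505 RPKM. Around Olfr1340 there are 12, of which 11 were at 0 in all mutants, and Olfr1342 had 0.66 RPKM in mutant replicate 3 alone. Around Olfr792 there are 49, of which 40 were at 0 in all mutants. Olfr791, Olfr805 and Olfr819 each reached 0.5 RPKM in a mutant there, and Olfr819 had the highest mutant mean, 1.34 RPKM, with 1.44, 0.33, 3.60 and 0 RPKM in replicates 1 to 4. Of the 137 receptor genes within 500 kb of these 4, only 5 reached the level needed for the test (Olfr1176, Olfr1342, Olfr791, Olfr805 and Olfr819), and none of the 5 passed.

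Grouping receptor genes less than 1 Mb apart gave 68 clusters, of which 30 held a member and 3 held a member that rose. The largest, chr2:85330967-90401674, has 224 receptor genes. Of these, 194 (86.6%) were listed at 0 in all libraries and 9 were members, with 2 higher and 1 lower. The Olfr1340 cluster (chr4:118665519-118934840) has 13 receptor genes and 2 members, and the Olfr792 cluster (chr10:128989914-130497379) has 62 and 4. No cluster had more than 2 members that rose, and only the chromosome 2 cluster had more than 1. The nearest genes that are not receptors did not pass the test or were too low to be tested. Ptprj, a receptor tyrosine phosphatase gene 548 kb from Olfr1257, had 15.6 ± 3.61 RPKM (SD, n = 4) in the mutants and 18.3 ± 2.17 (SD, n = 6) in the controls (limma adjusted p = 0.478).

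**Figure D2:**
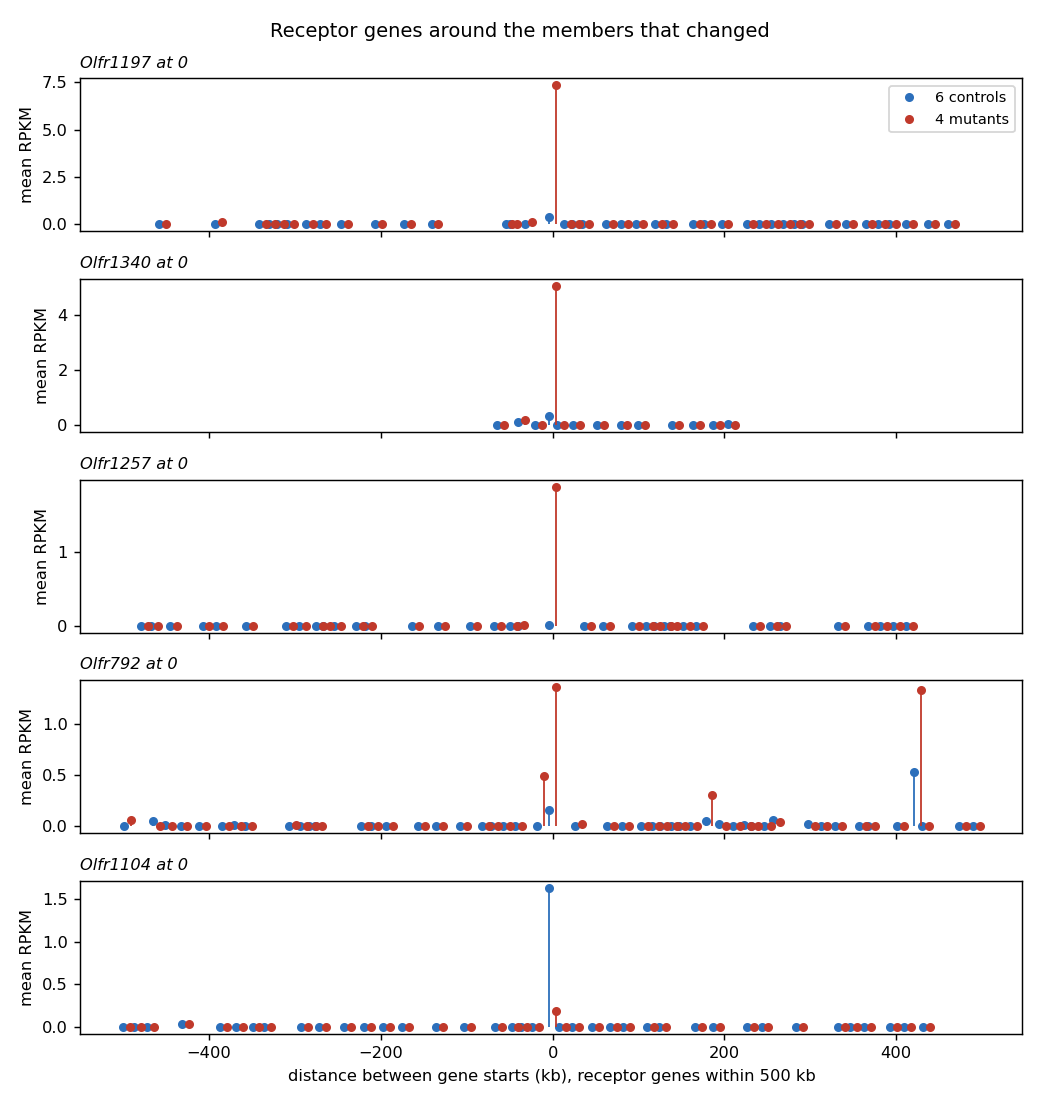
Mean RPKM of the 4 mutant and 6 control libraries (vertical axis, linear, each panel on its own scale) for the receptor genes within 500 kb of each gene that changed, by distance between gene starts in kb, with mutant and control points set slightly apart. A single tall mutant stem stands at Olfr1197, Olfr1340 and Olfr1257, a control stem at Olfr1104, and around Olfr792 a few other genes have signal.

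The most abundant members were not those that changed most. Olfr976 was the highest, with 22.6 to 29.1 RPKM in the mutants, 33.05 to 42.0 in the Cre controls, and 34.1 and 22.6 in the F/- controls. The mutants lay below all Cre controls but overlapped the F/- controls, and the log2 difference of -0.44 had a limma adjusted p of 0.157. Olfr288 had 19.3 to 24.6 RPKM in the mutants, 16.0 to 20.1 in the Cre controls, and 12.2 and 4.89 in the F/- controls (adjusted p = 0.246, limma). Olfr1300-ps1, annotated as a pseudogene by its symbol, had 4.20 to 9.36 RPKM over all libraries, with overlapping groups. These 3 were the only members with a mean of at least 5 RPKM, and 21 had a mean of at least 1 RPKM.

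The remaining members among the 12 with the highest means gave overlapping groups, apart from Olfr1197 and Olfr1340. Olfr283 had 1.51 to 6.02 RPKM in the mutants and 3.08 to 6.91 in the controls. Olfr877 ranged from 2.81 to 10.5 in the mutants and from 0.06 to 4.63 in the controls. Vmn2r51, a vomeronasal receptor of the family whose receptors detect peptides and proteins, was steadier, at 2.54 to 4.46 in the mutants and 2.02 to 3.03 in the controls. Olfr1463, Olfr1164 and Olfr206 were all listed at 0 in F/- control replicate 2 and had 0.68 to 6.00 RPKM in every other library. Olfr214 had 1.25, 0, 0.86 and 0.04 RPKM in the mutants and 2.40, 2.68, 3.16 and 3.13 in the Cre controls. Its F/- controls were at 2.12 and 0.39, so the mutants overlapped the second of these.

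Only 5 members (6.76%) reached 0.5 RPKM in all 10 libraries, against 62.2% of all genes tested: Olfr976, Olfr288, Olfr1300-ps1, Olfr283 and Vmn2r51. In contrast 30 members (40.5%) reached it in 1 library alone, against 9.86% of all genes. Of these 30, 22 were in a mutant library (8, 4, 7 and 3 in replicates 1 to 4), 1 in a Cre control and 7 in an F/- control. Over all genes, 55.4% of those seen in 1 library were in a mutant. A member seen in 1 library entered through that library alone, so nothing is read from this split. The 5 highest were Olfr578 (3.81 RPKM in mutant replicate 1, 0 in the other 9), Olfr791 (1.88, mutant replicate 1), Olfr506 (1.67, mutant replicate 2), Olfr478 (1.66, F/- control replicate 2) and Olfr1466 (1.59, mutant replicate 1). Olfr791 is a neighbour of Olfr792 and had 0, 0.08 and 0 RPKM in the other mutants.

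Seen by group, 25 members reached 0.5 RPKM in mutants only, 13 in controls only and 36 in both. Those shares were 33.8% and 17.6%, beside 7.16% and 6.98% of all genes tested. The rule used these same values, so nothing is read from these shares. Further, 8 members (10.8%, beside 0.531% of all genes tested) were listed at 0 in all 6 controls. In all 4 mutants 5 members (6.76%, beside 1.03%) were at 0. The 8 could enter only through a mutant library and the 5 only through a control library, so these shares support nothing by themselves. Among the 8, Olfr272 had 0.88, 0, 0.52 and 0.14 RPKM in mutant replicates 1 to 4, Olfr270 had 0.36, 0, 0.62 and 0.07, and Olfr514 had 0.45, 0.72, 0.20 and 0, and none of the 3 passed the test (limma adjusted p = 0.181, 0.273 and 0.173). Olfr272 and Olfr270 were called higher with array weights, which let noisy libraries count less, and Olfr514 without mutant replicate 4. Olfr272 and Olfr270 lie in the same cluster of 4 receptor genes on chromosome 4. Just inside the limit of 0.5 RPKM were Olfr341 (0.506 at its highest), Vmn1r179 (0.520) and Olfr1176 (0.522), and just outside were Olfr829 (0.490), Olfr1537 (0.487) and Olfr476 (0.471).

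**Figure D3:**
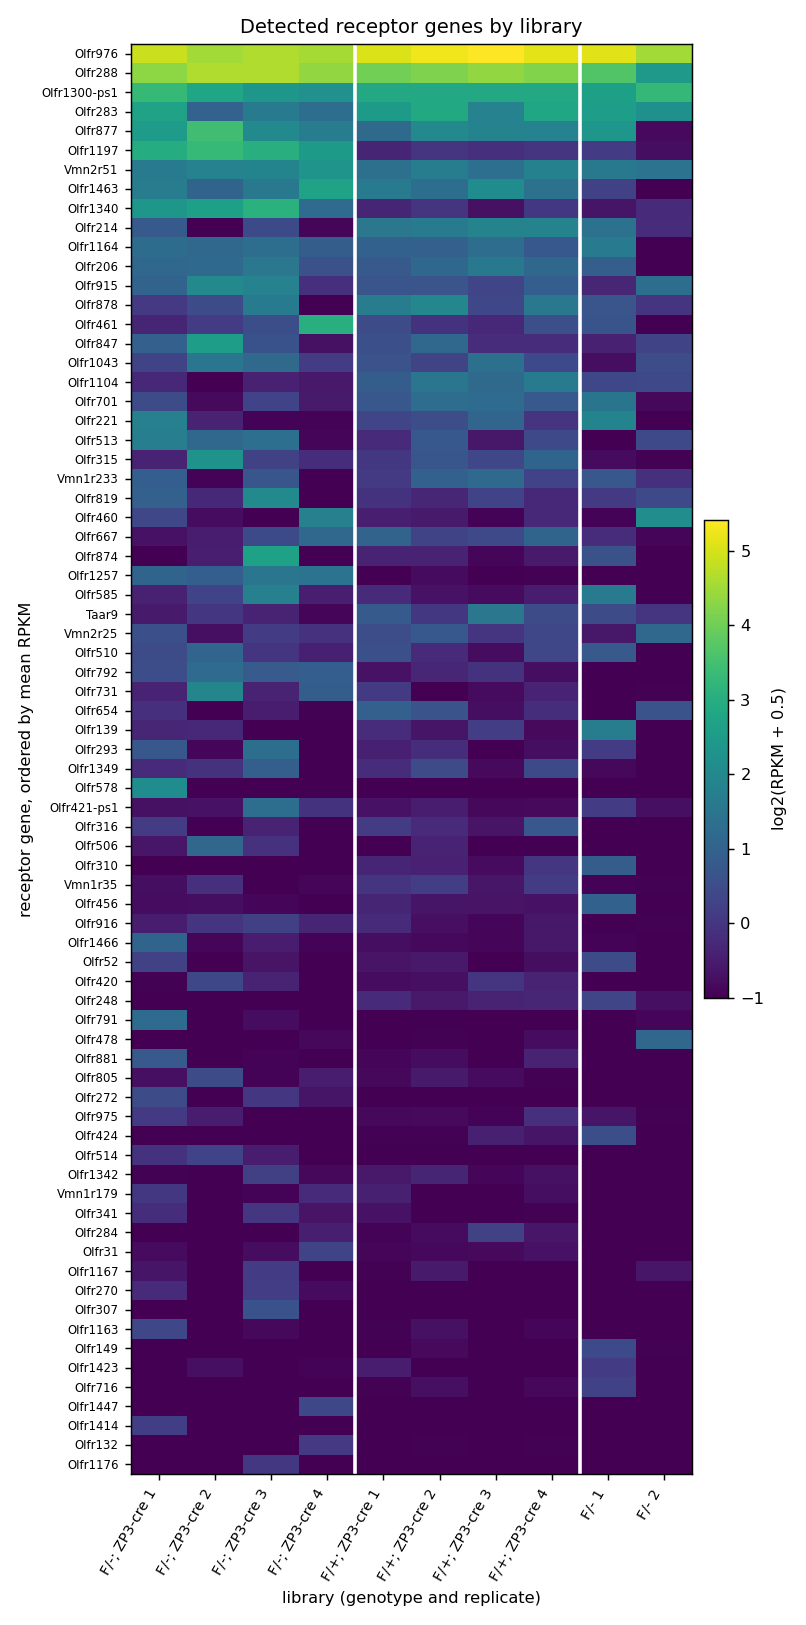
Levels of all 74 receptor genes as log2(RPKM + 0.5) (colour scale) in the 10 libraries (columns, by genotype and replicate, white lines between genotypes), ordered by mean RPKM. The top rows are bright in all columns, Olfr1197 and Olfr1340 are bright in the 4 mutant columns, and most lower rows have signal in 1 or a few libraries.

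The number of receptor genes at or above 0.5 RPKM was 38, 28, 39 and 21 in mutant replicates 1 to 4. It was 27, 26, 23 and 28 in the Cre controls, and 33 and 15 in the F/- controls. Mutant replicates 1 and 3 were the highest of all libraries, while mutant replicate 4 was below every Cre control, so the groups overlapped. Mutant replicates 1 and 3 also had more genes of any kind at or above 0.5 RPKM (11148 and 11170) than replicates 2 and 4 (10592 and 10627). Cre control replicates 1 to 4 had 11139, 11243, 11146 and 10994 genes of any kind, and the F/- controls 10778 and 10325. Whether the receptor counts follow the number of genes of any kind was not tested. Summed over all members, the levels were 129.5, 124.8, 132.2 and 96.2 RPKM in mutant replicates 1 to 4. They were 97.6 to 111.3 in the Cre controls, and 101.2 and 60.3 in the F/- controls. Summed without Olfr976 and Olfr288, the other members gave 81.2, 77.6, 83.2 and 53.0 RPKM in the mutants, 47.8 to 55.8 in the Cre controls and 55.0 and 32.7 in the F/- controls. Both sums include the genes called above, and the member rule used these values, so nothing is read from them.

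**Figure D4:**
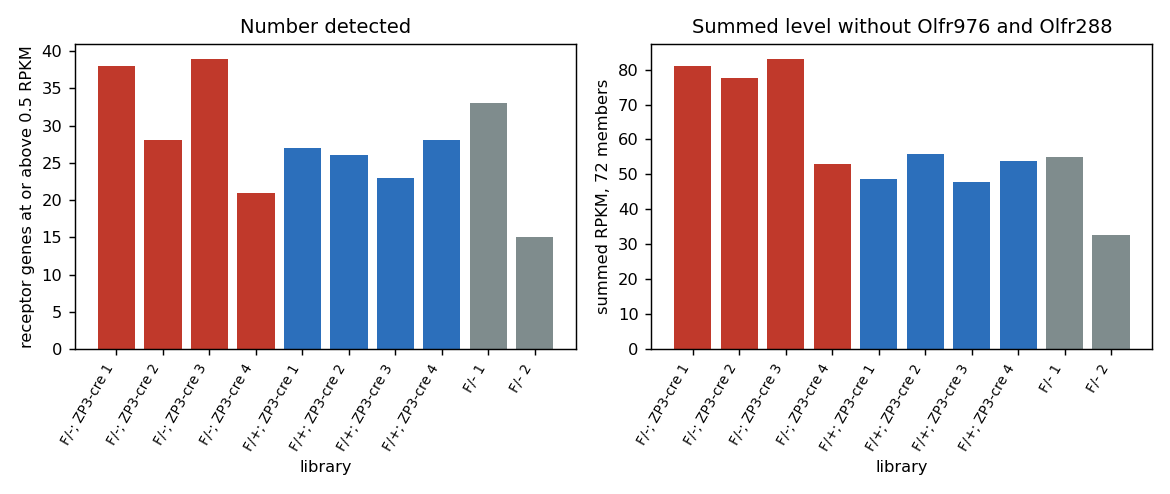
Number of receptor genes at or above 0.5 RPKM (left) and summed RPKM of the members other than Olfr976 and Olfr288 (right) in each library, with bars from 0 coloured by genotype. Mutant replicates 1 and 3 have the tallest bars on the left, with 38 and 39 genes, and F/- control replicate 2 has the shortest on both sides, with 15 genes and 32.7 RPKM.

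The median change of the 74 members was 0.31 on the log2(RPKM + 0.5) scale, and 48 (64.9%) had a change above 0. Over all genes tested the median was 0.02, and 52.2% were above 0. The rule bears on these values, since 25 members entered through mutants only and 13 through controls only, and nothing is read from the difference. At an unadjusted p below 0.05 the limma test had 10 members higher (10.2% of all genes tested were) and 7 lower (7.90% of all genes), of which 12 lost the call on adjustment. Taar9, the member for amine detection, was among them, at 0.248 ± 0.199 RPKM (SD, n = 4) in the mutants and 1.08 ± 0.710 (SD, n = 6) in the controls (adjusted p = 0.124). None of the 3 Vmn1r and 2 Vmn2r genes passed the test.

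**Figure D5:**
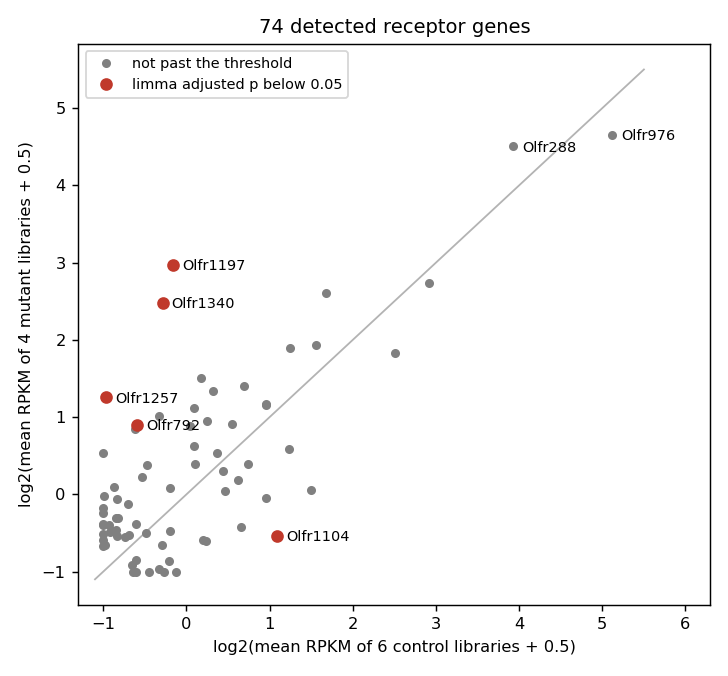
Mean level of each of the 74 receptor genes in the 4 mutant libraries (vertical) against the 6 control libraries (horizontal), both as log2(mean RPKM + 0.5), with the line of equal levels. Olfr1197, Olfr1340, Olfr1257 and Olfr792 stand above the line and Olfr1104 below it, while Olfr976 and Olfr288, the most abundant, lie near it.

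Each control genotype was also compared on its own, in a model in which the 3 groups share 1 estimate of the spread. Against the Cre controls the same 4 members were higher (2.29% of all genes were) and Olfr1104 and Olfr214 were lower (1.73% of all genes). Olfr214 had a log2 difference of -1.90 with a limma adjusted p of 0.0403, and it lost the call without any 1 of mutant replicates 2, 3 and 4 or of the 4 Cre controls, while Olfr792 lost it without Cre control replicate 1, 2 or 4. Against the F/- controls 6 members were higher (2.50% of all genes), Olfr288 and Olfr1463 in addition to the 4, and none was lower (1.22% of all genes). Olfr288 had a log2 difference of 1.45 (limma adjusted p = 0.0126) and Olfr1463 one of 2.15 (limma adjusted p = 0.0326). Olfr1463 lost the call without any 1 of mutant replicates 1, 3 and 4 or of the 4 Cre controls. Leaving out either F/- control leaves 1 library in that group, so no counts are given for those fits. With array weights, Olfr1197 alone kept its call against the F/- controls. These comparisons share the mutant libraries.

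Between the control genotypes, both of which retain a working Setdb1 allele, limma called no member, with 1 higher and 8 lower in the F/- controls at an unadjusted p below 0.05 (5.30% and 7.79% of all genes). Over all genes 0.0364% were higher and 0.0218% lower. Leaving out either F/- control leaves 1 library in that group, so no counts are given for this comparison without it. Against all controls, the count of members lower in mutants went from 1 to 4 without F/- control replicate 2, when Olfr976, Olfr214 and Olfr701 joined Olfr1104, and the 4 higher calls did not change. Over all genes, the same step took lower calls from 230 to 323 and higher calls from 353 to 412. The count of members with all mutants below all controls went from 2 to 9 without that library. With fewer controls the groups of any gene separate more easily. The share of all genes was not counted for this split, so nothing is read from the rise.

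Genes that carry the receptor signal in sensory neurons were examined next. Of 17 olfactory transduction genes with a row, 12 were tested, and limma called none higher and 1 lower, beside 2.57% and 1.67% of all genes tested. That gene was Pde4a, a phosphodiesterase that breaks down cAMP, with 0.290 ± 0.189 RPKM (SD, n = 4) in the mutants and 1.59 ± 0.565 (SD, n = 6) in the controls (limma adjusted p = 0.0163). Adcy3, the adenylyl cyclase of the pathway, had 2.08 ± 0.698 (SD, n = 4) and 1.33 ± 0.381 RPKM (SD, n = 6) and did not pass (limma adjusted p = 0.428). Gnal, the olfactory G protein alpha subunit, stayed at or below 0.207 RPKM in all libraries. Of 6 vomeronasal transduction genes 5 were tested and none passed. Gng8, a G protein gamma subunit, was at 0.730 ± 0.355 (SD, n = 4) and 0.112 ± 0.146 RPKM (SD, n = 6) with a limma adjusted p of 0.0561.

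Rtp1 and Rtp2, which help receptors reach the cell surface, were listed at 0 in all libraries, and none of the receptor export genes passed the test. Of 19 genes linked to receptor gene choice 15 were tested and none passed. Ldb1, a partner of Lhx2 at receptor enhancers, had 33.3 ± 3.60 (SD, n = 4) and 25.7 ± 4.86 RPKM (SD, n = 6; limma adjusted p = 0.210). Of 10 markers of olfactory sensory neurons 5 were tested and none passed. The list summed to 4.93 to 7.45 RPKM in the mutants, 4.35 to 6.08 in the Cre controls and 1.73 to 4.75 in the F/- controls. The markers differed in level. Gap43 and Rtp1 were at 0, and Omp, the defining marker of mature olfactory neurons, was at most 0.0278 RPKM. Stoml3 was at most 0.252 RPKM and Gnal at most 0.207. Cnga2, Ano2 and Gng13 had means of 1.02, 1.14 and 1.15 RPKM in the mutants and 0.642, 1.56 and 0.745 in the controls. Adcy3 and Gng8, given above, are also on this list.

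Of 8 oocyte markers all were tested, and only Nobox, an oocyte transcription factor, passed, at 274 ± 25.5 (SD, n = 4) and 205 ± 21.3 RPKM (SD, n = 6; limma adjusted p = 0.0269), beside 2.57% of all genes called higher. The 7 granulosa, 3 theca or stroma and 4 blood, endothelial or immune markers tested gave no call. The granulosa list summed to 76.7 to 109 RPKM in the mutants, 89.9 to 103 in the Cre controls and 75.1 to 75.4 in the F/- controls. The blood, endothelial and immune list summed to 21.9 to 34.7, 29.1 to 39.6 and 42.2 to 46.0, and the theca and stroma list to at most 3.91. Which cells these transcripts came from was not tested. Other clustered gene families were set beside the receptors. Of 58 clustered protocadherin genes 15 were detected and none passed. Of 43 beta-defensin genes 7 were detected and 1, Defb41, was higher, against the same 2.57% of all genes. Of 54 keratin-associated protein genes 1 was detected, of 35 bitter taste receptor genes 2 were, and none of these passed.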

How the data were processed

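The authors deposited RPKM values for 34768 RefSeq transcripts in 10 libraries. Per the submitters' processing notes, bcl2fastq 1.8.3, STAR and mm10 were used. The sources used here do not name the counting tool. Per the labels' protocols, cDNA was amplified from small RNA amounts, which adds spread between libraries.

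The row with the highest mean stood for each symbol. limma 3.58.1 in R 4.3.3 was run on log2(RPKM + 0.5), with an empirical Bayes trend, for genes with at least 0.5 RPKM in at least 1 library. The fold on this scale understates the change of low genes. Coordinates are from RefSeq (GRCm38.p6) and exons from GENCODE M21. Coding sequences were compared as nucleotides with BLAST 2.17.0 and Biopython 1.88. RefSeq starts of these genes are mostly coding starts, so promoters were not examined. Depth came from the spacing of low values.

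The members, gene lists and tests were chosen with earlier results of these data known. Named genes are Setdb1, members past the threshold or with groups that do not overlap, the 12 highest, those detected in all 10 libraries, the 5 highest seen in 1 library, the 3 on each side of 0.5 RPKM, and their neighbours and copies. Olfr270, Olfr272, Olfr514, Taar9 and the single genes of the lists were named after their values were seen. Alternatives varied the pseudocount, filter, scaling, weights, trend, threshold, block and libraries.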

Additional observations from a re-analysis of the deposited data

Results flagged for a closer look

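In groups of 4 libraries, a value was picked out when its gap to the next took up more of the group's range than Dixon's 95% limit, which chance does for about 1 group in 20. Among 51 groups of the named genes, 11 values were picked out, and many are of genes with 0 in the other libraries, for which any signal meets the rule. In mutant replicate 1, Olfr578 had 3.81 RPKM, Olfr791 1.88, Olfr1466 1.59 and Olfr829 0.490, against at most 0.196 in the other mutants. In mutant replicate 3, Olfr1176 had 0.522 RPKM, and in mutant replicate 4 Olfr1537 had 0.487 and Olfr478 0.0541, with 0 in the other mutants. Among the Cre controls, Olfr341 had 0.121 RPKM in replicate 1, Olfr506 had 0.270 in replicate 2 and Olfr829 had 0.0451 in replicate 4. Setdb1 had 52.5 RPKM in Cre control replicate 4, against 25.1 to 28.6 in the other 3.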

How the results depend on the processing

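The 5 calls against all controls were made under each alternative run. Olfr1197 changed by 1.95 to 4.00 on the log2 scale and Olfr1104 by -2.64 to -0.71. Olfr248 passed with the Cre controls as the only controls.

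With array weights 6 members were higher, against all controls and against the Cre controls, with Olfr270 and Olfr272 added to the 4. Members lower against all controls (1 as reported) numbered 2 with quantile normalization, 3 with array weights, 2 at a threshold of 0.1 and 4 with the Cre controls only. Lower against the Cre controls (2) numbered 1 with a pseudocount of 0.1, without a filter or without the trend, and 4 at a threshold of 0.1. Higher against F/- (6) numbered 1 with array weights. Members with mutants below all controls (2) numbered 1 under both stricter filters and 5 with median centring. All genes (353 higher, 230 lower) became 707 and 512 with array weights, 550 and 395 at a threshold of 0.1, and 150 lower without a filter. Median centring gave 291 and 334, and quantile normalization 317 and 327. List genes higher (0) numbered 1 without a filter or with quantile normalization, and 2 with array weights, without the trend or at a threshold of 0.1. Defb41 alone in the other families was not called (0) without a filter or without the trend. Receptor genes in at least 1 library were 49 at 1 RPKM, and the control median was 40 at 0.25 RPKM and 17.5 at 1 RPKM.

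The replicate numbers showed no pairing of the libraries. Correlations of deviations from the group means were -0.0372 to 0.0292 for same-numbered libraries and -0.0700 to 0.0700 for the others. Not every library correlated best with its own number. The F/- controls mirror each other in this measure, so values with them say little. A shared batch was not tested. With the replicate block, members were 4 higher and 1 lower against all controls, 3 higher against F/-, all genes 248 higher and 136 lower, and the other families 0 higher. Olfr792 lost its call against the Cre controls.

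Leaving out 1 library gave 4 to 5 members higher and 1 to 4 lower against all controls, and 3 to 4 and 1 to 4 against the Cre controls. Ranges against F/- and between controls are not given, since leaving out an F/- control leaves 1 library in that group. Non-overlapping members were 4 to 7 above, the most without mutant replicate 2, and 2 to 9 below. The shares of all genes in these runs were not counted, so nothing is read from these ranges. All genes were 223 to 412 higher and 114 to 323 lower, list genes 0 to 1 higher and other families 0 to 1 higher and 0 to 1 lower. Depth limits members near 0.5 RPKM to about 21.7 to 34.3 reads, and amplification can copy 1 molecule into several reads.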
